A study of Mus musculus with 9 samples.

Results

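The 10 genes of the activator protein 1 (AP-1) and immediate early group followed here in RNA from mouse pancreatic islets were Fos, Fosb, Fosl2, Jun, Junb, Jund, Atf3, Egr1, Nr4a1 and Ier2. They were taken by symbol, and all 10 were among the 23329 genes of the count table. The table holds 5 libraries titled as mutants, with the genotype Pdx1A4, which the labels do not explain, and 4 libraries titled as controls, with the genotype Pdx1+/-. All libraries came from islets of male mice, and Pdx1 is a homeodomain transcription factor of pancreas formation and beta cell function. The controls thus carried one altered Pdx1 allele, and the labels used here give neither an age nor whether islets of several animals were pooled. As no label ties a library to an animal of its own, each p-value reflects the spread of these libraries alone, and that spread may be technical. The labels list serum-containing media for islets without saying whether these islets were cultured, and serum is itself an inducer of immediate early genes.

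AP-1 is a dimer of basic leucine zipper proteins, in which a JUN protein pairs with another JUN, a FOS or an ATF protein to bind DNA. Immediate early genes are transcribed within minutes of a stimulus without new protein synthesis, through serum response factor and ETS partners downstream of ERK and through the cAMP-responsive factor CREB. In beta cells, glucose, calcium entry and incretin hormones are known to induce Fos, Egr1 and Nr4a1, and the handling of tissue is known to induce many of these genes as well. The question put to the data was how each of them stood in mutant against control islets.

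Libraries held 7186462 to 9163253 counts in mutants and 6092010 to 7375376 in controls. Pdx1 itself was at 4.18 to 19.9 CPM (library-size-scaled counts, here by the trimmed mean of M values, TMM) in mutants and 23.8 to 36.0 CPM in controls. As the labels do not say what Pdx1A4 alters in the transcript, this is a description. Marker RNA of acinar and endocrine cells moved with the groups, while the ranges of the other cell types given below overlapped. The part of marker RNA in the members' differences was not tested other than by the fits given below. All 7 hormone genes were detected and together took 0.0691% to 7.99% of counts in mutants and 16.9% to 21.0% in controls. The 20 acinar markers, none of them at 0, summed to 115000 to 262000 CPM in mutants and 20800 to 47900 CPM in controls. The 18 granule exocytosis genes of endocrine cells summed to 101 to 4790 CPM in mutants and 7740 to 10500 CPM in controls. Macrophage markers (11 genes) summed to 312 to 564 CPM in mutants and 85.9 to 470 CPM in controls, endothelial markers (10 genes) to 8.63 to 92.4 CPM in mutants and 47.0 to 154 CPM in controls. Ductal markers (10 genes) summed to 9470 to 16600 CPM in mutants and 3140 to 9690 CPM in controls, with 3 called higher and 1 lower. Stellate and fibroblast markers (11 genes) summed to 3.10 to 174 CPM in mutants and 58.2 to 122 CPM in controls. In bulk RNA, fewer cells of a type and less RNA per cell cannot be told apart. Hormone counts were lowest in mutant 2 (0.0691%) and mutant 3 (1.21%), and results are given without these libraries where they differ.

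The group did not move as one. Nr4a1 and Junb fell in mutant islets, Atf3 and Jund rose, and Fos, Fosl2, Jun, Egr1 and Ier2 did not pass the test. Of the 9 members with enough counts to be tested, 2 were called higher, where 20.6% of all 12402 tested genes were called higher, and 2 were called lower, where the share of all tested genes was 11.8% (edgeR quasi-likelihood test, Benjamini-Hochberg adjusted over all tested genes, threshold 0.05). The median log2 fold change of the 9 was -0.53, against 0.04 over all tested genes. All mutants stood above all controls for Jund and Atf3 and below all of them for Nr4a1 and Junb, and 18.5% and 14.7% of tested genes were apart in these directions. With TMM replaced by RLE scaling, the same 4 members were called, where 17.4% of tested genes were called higher and 16.2% lower. DESeq2 (20.3% higher and 20.6% lower) and limma-voom with quality weights (24.3% higher and 18.5% lower) also called them. No test sets counts as small as 2 of 9 apart from these shares.

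**Figure D1:**
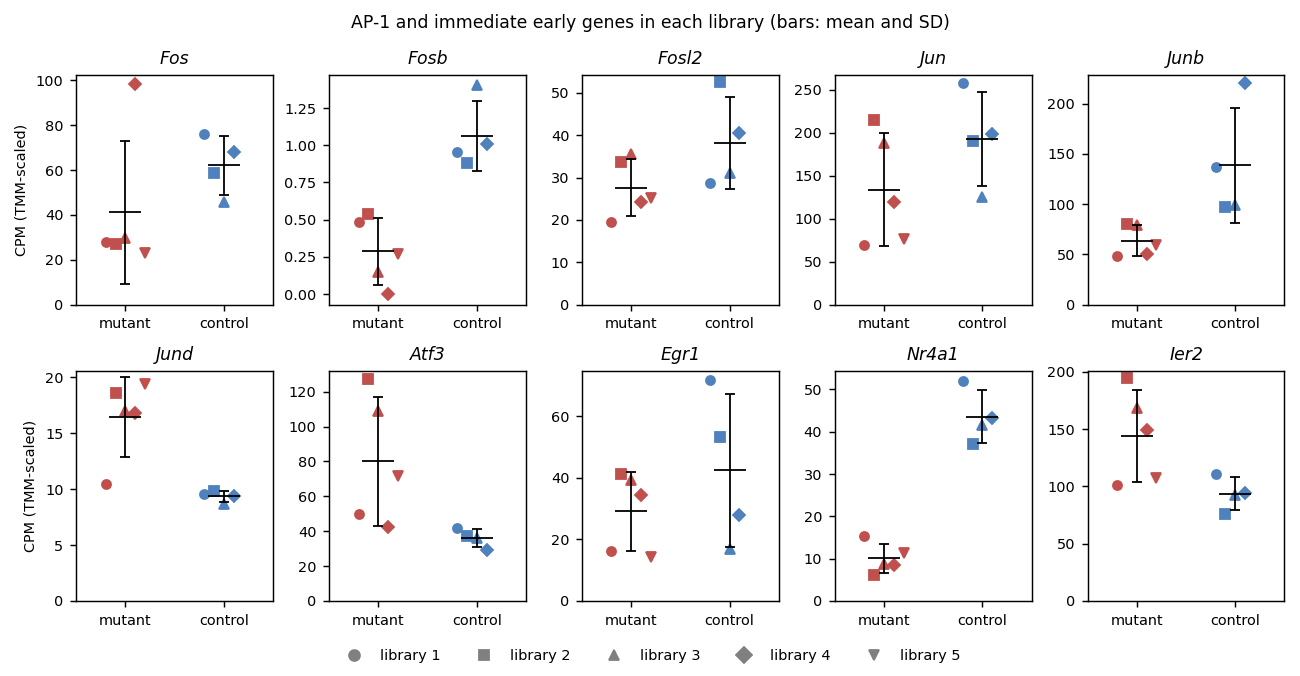
CPM of each of the 10 genes in the 5 mutant (red) and 4 control (blue) libraries. Each library number has 1 marker shape, and bars give the mean and SD. Libraries with the same number were not treated as pairs. Nr4a1 and Junb of all mutants lie below all controls, Atf3 and Jund above them, and Fos of mutant 4 stands apart at 98.2 CPM.

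Nr4a1 encodes an orphan nuclear receptor (NUR77) that is induced by depolarization and cAMP, from chromosome 15, positions 101254269 to 101274795 (GRCm38). It had 15.4, 6.20, 8.80, 8.49 and 11.4 CPM in mutants 1 to 5, and 52.1, 37.2, 41.6 and 43.1 CPM in controls 1 to 4. All mutants were low, with mutant 2 the lowest and mutant 1 the highest among them, and the groups did not overlap. Nr4a1 was 4.32-fold lower in mutants, at a log2 fold change of -2.11 (standard error, SE, 0.25; edgeR adjusted p = 0.00147), and ranked 52 by p among the 12402 tested genes. The call held in all 9 fits that left out 1 library, with log2 fold changes between -2.32 and -2.01 (highest edgeR adjusted p = 0.00855). The endocrine score, the mean log2 CPM of the granule exocytosis genes, was 5.78, 1.55, 3.85, 5.25 and 5.30 in mutants 1 to 5. Its highest and lowest mutant libraries were those of Nr4a1. Controls lay at 6.52 to 7.01, with no overlap, so every fit adjusted for this score compares the groups across a gap. Adjusted for this score, Nr4a1 had a log2 fold change of -1.53 (edgeR adjusted p = 0.0197), the single member called in that fit, where 0.363% of tested genes were called lower and 2.74% higher. Leaving out mutants 2 and 3 gave -1.94 (edgeR adjusted p = 0.00338). With the acinar score as a covariate it was -0.12 and did not pass, in a fit that called no gene at all, while 349 genes had an unadjusted p under 0.05.

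The promoters of Nr4a1 and Junb, which fell, of Atf3, which rose, and of Fos, which did not pass the test, are shown here to compare their sequence words. That of Jund, which rose, was searched and is not printed. Sequences are the 250 bases before the RefSeq transcription start on GRCm38.p6, written 5′ to 3′ on the gene's strand, with an entry for 8 of the 10 genes. Capitals mark the word TGACGNA or its reverse complement, a variant of the cAMP response element, picked after the promoters had been read.
Nr4a1, chr15:101266596-101266845, plus strand: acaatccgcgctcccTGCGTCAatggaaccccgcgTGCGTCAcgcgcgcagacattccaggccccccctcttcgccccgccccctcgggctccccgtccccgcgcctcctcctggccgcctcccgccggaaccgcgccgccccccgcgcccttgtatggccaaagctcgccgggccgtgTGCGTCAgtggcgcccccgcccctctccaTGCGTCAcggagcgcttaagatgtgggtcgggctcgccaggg
Junb, chr8:84978749-84978998, minus strand: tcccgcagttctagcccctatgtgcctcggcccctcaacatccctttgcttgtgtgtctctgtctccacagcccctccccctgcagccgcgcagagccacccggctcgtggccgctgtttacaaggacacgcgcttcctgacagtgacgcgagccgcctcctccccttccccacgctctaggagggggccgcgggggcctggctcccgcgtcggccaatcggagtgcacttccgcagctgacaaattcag
Atf3, chr1:191183334-191183583, minus strand: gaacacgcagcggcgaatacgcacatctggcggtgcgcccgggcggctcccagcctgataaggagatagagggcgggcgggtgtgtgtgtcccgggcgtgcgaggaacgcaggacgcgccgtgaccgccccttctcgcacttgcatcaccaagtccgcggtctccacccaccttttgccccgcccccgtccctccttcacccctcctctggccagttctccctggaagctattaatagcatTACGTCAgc
Fos, chr12:85473640-85473889, plus strand: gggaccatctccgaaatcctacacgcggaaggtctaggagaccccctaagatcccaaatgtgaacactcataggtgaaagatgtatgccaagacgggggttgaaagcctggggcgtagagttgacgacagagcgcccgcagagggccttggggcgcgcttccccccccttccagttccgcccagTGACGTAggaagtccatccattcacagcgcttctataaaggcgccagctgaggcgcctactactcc
The word occurred 4 times in the Nr4a1 window, at bases 235 to 229, 215 to 209, 71 to 65 and 42 to 36 upstream. Of the 32851 promoter entries, that of Nr4a1 was the only 1 to hold as many. As the word was picked after these promoters had been read, its frequency among them is a description and not a test. It occurred once in Fos, 66 to 60 bases upstream, and once in Atf3, 9 to 3 bases upstream, and was found in 4.47% of all entries and in 4 of the 8 members (the fourth is Fosb). Genes with the word thus both fell (Nr4a1) and rose (Atf3), and Junb, which fell, did not hold it in this window. The Nr4a1 and Atf3 windows lie within the longer gene spans of GENCODE, that of Nr4a1 in an intron.

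Other words were searched in the same windows on both strands. TGACNTCA, which covers the full cAMP response element and the JUN autoregulatory site, was found in Jun, 45 to 38 bases upstream, and in 7.49% of all entries. GCGNGGGCG, a site of EGR proteins, was found in Fosb, Fosl2 and Nr4a1 and in 4.70% of entries. The kappa B word of NF-kB was found in Fos, Fosb and Fosl2 and in 7.25% of entries. Neither TGANTCA, the classical AP-1 site, nor the CArG box of serum response factor occurred in the 8 windows, and they were found in 6.75% and 1.47% of entries. Sequence farther upstream was not searched, and Egr1 and Ier2 had no entry, so sites outside these windows are not covered. No match of one word overlapped a match of another word. The windows of Nr4a1 (74.4% G and C) and Fosb (68.8%) differ in base makeup from that of Jund (47.6%). However, the Jund window (positions 70697489 to 70697738) does not reach the GENCODE start of Jund at 70698949. All 250 bases of the Fosl2 window lie within GENCODE exons. The words and base makeup of these windows therefore need not be those of the sequence just before the GENCODE start.

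Junb encodes the JUN protein that restrains the growth-promoting activity of its relative Jun. It had 48.6, 80.3, 79.5, 50.5 and 59.3 CPM in mutants 1 to 5, and 137, 97.2, 99.2 and 220 CPM in controls 1 to 4. Control 4 was the highest library, and the groups did not overlap. Junb had a log2 fold change of -1.12 (SE 0.27, edgeR adjusted p = 0.0139), or 2.18-fold lower. The call held in all 9 fits without 1 library (log2 fold changes -1.35 to -0.81, highest edgeR adjusted p = 0.0385) and without mutants 2 and 3, at -1.46 (edgeR adjusted p = 0.0146). It was lost on adjustment for the endocrine score, where the log2 fold change was -1.56 (edgeR adjusted p = 0.0549). Junb lies on chromosome 8, positions 84974484 to 84978718, and shares 173 exon bases with Prdx2 on the opposite strand. Prdx2, a peroxiredoxin gene, had 234 ± 18.5 CPM in the 5 mutants and 196 ± 26.9 CPM in the 4 controls (± SD), at a log2 fold change of 0.26 (edgeR adjusted p = 0.163).

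Jund encodes the JUN protein that is transcribed at steady levels in many tissues. It had 10.4, 18.6, 17.0, 16.8 and 19.4 CPM in mutants 1 to 5, and 9.57, 9.80, 8.67 and 9.39 CPM in controls 1 to 4. The controls were tightly grouped, mutant 1 lay close above them, and the other mutants lay apart. Jund had a log2 fold change of 0.81 (SE 0.20, edgeR adjusted p = 0.0151), or 1.76-fold higher. It held in all 9 fits without 1 library, with edgeR adjusted p up to 0.0474, and was lost without mutants 2 and 3 (log2 fold change 0.67, edgeR adjusted p = 0.0734) and on adjustment for the endocrine score (0.60, edgeR adjusted p = 0.254). Counts were 86 to 145 in mutants and 67 to 84 in controls. Jund (chromosome 8, positions 70698949 to 70700616) has 877 of its 1668 exon bases in common with the antisense gene Gm11175, and without known strandedness reads of the pair cannot be told apart.

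Atf3 encodes a stress-induced ATF protein that pairs with JUN proteins and often represses its targets. It had 50.01, 127, 109, 42.4 and 71.6 CPM in mutants 1 to 5, and 41.7, 37.3, 36.2 and 29.0 CPM in controls 1 to 4. Mutants 2 and 3, the libraries with the least hormone RNA, were the highest, and mutant 4 lay barely above control 1. Atf3 had a log2 fold change of 1.15 (SE 0.32, edgeR adjusted p = 0.0245), or 2.22-fold higher. The p-value crossed the threshold without control 1, 2, 3 or 4 or without mutant 3, at edgeR adjusted p of 0.0516, 0.0635, 0.0535, 0.0639 and 0.0682. The log2 fold changes in these fits were 1.23, 1.08, 1.15, 1.06 and 0.97. Leaving out mutants 2 and 3 gave 0.55 (edgeR adjusted p = 0.0986), and adjustment for the endocrine score gave 0.26 (edgeR adjusted p = 0.694).

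**Figure D2:**
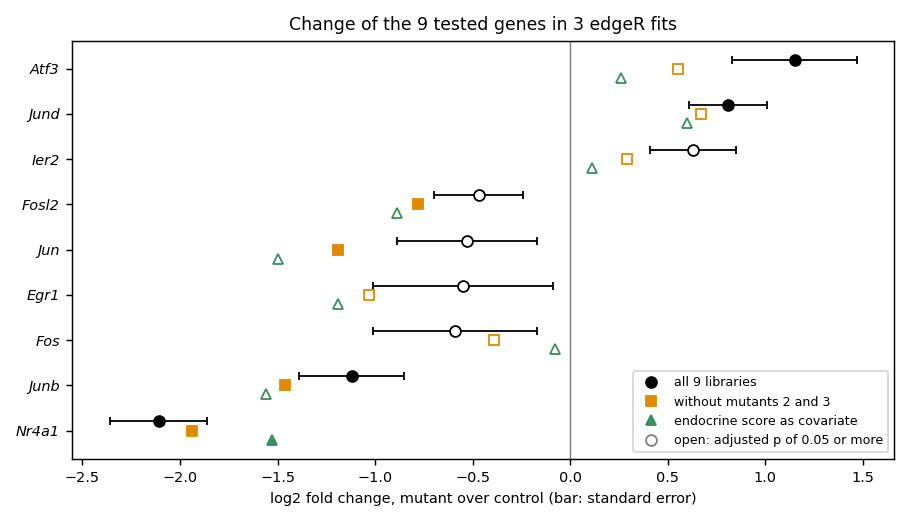
Log2 fold changes of the 9 tested genes, mutant over control, with all 9 libraries (circles, bars show the standard error), without mutants 2 and 3 (squares) and adjusted for the endocrine score (triangles), where filled symbols passed an adjusted p of 0.05. Nr4a1 is filled in all 3 fits, Jun and Fosl2 are filled without mutants 2 and 3 (-1.19 and -0.78), and Atf3 and Jund are filled with all libraries.

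Fos encodes the partner that gives JUN its most stable dimers. It had 27.9, 27.1, 29.7, 98.2 and 23.1 CPM in mutants 1 to 5, and 76.1, 58.5, 45.8 and 68.1 CPM in controls 1 to 4. Mutants 1, 2, 3 and 5 lay below every control, and mutant 4 lay above every control. Fos had a log2 fold change of -0.59 (SE 0.42, edgeR adjusted p = 0.292). Mutant 4 took 4.70% of its counts from hormone genes, within the range of the other mutants, and its acinar score (the mean log2 CPM of the acinar markers) of 11.49 was the highest of the 9 libraries, whose part in its Fos level was not tested. Without mutant 4, Fos was lower by 1.26 on the log2 scale and passed (edgeR adjusted p = 0.00592, in a fit that called 11.9% of genes lower and 17.3% higher). The high Fos of mutant 4 was not shared by its relatives, as Fosb had 0 counts, Fosl2 24.1 CPM and Junb 50.5 CPM in that library.

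Jun, the founding member of the JUN family, had 69.7, 216, 188, 119 and 76.7 CPM in mutants 1 to 5, and 259, 190, 125 and 199 CPM in controls 1 to 4. Mutants 2 and 3 lay among the controls and the other mutants below all of them. Jun had a log2 fold change of -0.53 (SE 0.36, edgeR adjusted p = 0.268). Without mutants 2 and 3 it was -1.19 and passed (edgeR adjusted p = 0.0209), where 9.78% of tested genes were called lower. Jun shares 232 of its 3189 exon bases with the antisense gene Junos. Fosl2, which encodes the FOS protein FRA2, had 19.5, 33.7, 35.5, 24.1 and 25.3 CPM in mutants 1 to 5, and 28.7, 52.7, 31.2 and 40.5 CPM in controls 1 to 4. The groups overlapped, and Fosl2 had a log2 fold change of -0.47 (SE 0.23, edgeR adjusted p = 0.14). It too passed without mutants 2 and 3, at -0.78 (edgeR adjusted p = 0.0371), so that this fit called 4 members lower and 0 higher. Over all tested genes it called 9.78% lower and 10.8% higher. An unadjusted edgeR p under 0.05 was reached there by 6 of the 9 members and by 4554 of all 12571 tested genes. With the endocrine score as a covariate, Jun and Fosl2 had log2 fold changes of -1.5 and -0.89 and did not pass (edgeR adjusted p = 0.0742 and 0.135).

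Egr1, a zinc finger factor induced through ERK, had 16.1, 41.4, 39.3, 34.4 and 14.3 CPM in mutants 1 to 5, and 71.9, 53.3, 16.7 and 28.0 CPM in controls 1 to 4. Its control libraries alone spanned a range of several fold that held all but mutants 1 and 5. Egr1 had a log2 fold change of -0.55 (SE 0.46, edgeR adjusted p = 0.37). Ier2, an immediate early gene for a nuclear protein, had 101, 195, 168, 149 and 107 CPM in mutants 1 to 5, and 111, 75.9, 92.5 and 94.0 CPM in controls 1 to 4. Mutants 2 to 4 lay above every control. Ier2 had a log2 fold change of 0.63 (SE 0.22) and narrowly missed the threshold (edgeR adjusted p = 0.0508). It passed without mutant 1 (0.73, edgeR adjusted p = 0.0237) or mutant 5 (0.72, edgeR adjusted p = 0.0404). Leaving out mutants 2 and 3 gave 0.29 (edgeR adjusted p = 0.346), and adjustment for the endocrine score gave 0.11 (edgeR adjusted p = 0.835).

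Fosb, whose product resembles that of Fos and whose splice form persists under repeated stimulation, was near the detection limit and was not tested. Its counts were 4, 4, 1, 0 and 2 in mutants 1 to 5, and 7, 6, 12 and 9 in controls 1 to 4. Mutants were low in all 5 libraries and below every control, and the count of 0 in mutant 4 allows up to 3 counts, or 0.439 CPM, by counting error alone. With no low-count filter Fosb had a log2 fold change of -1.86 (edgeR adjusted p = 0.0701).

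**Figure D3:**
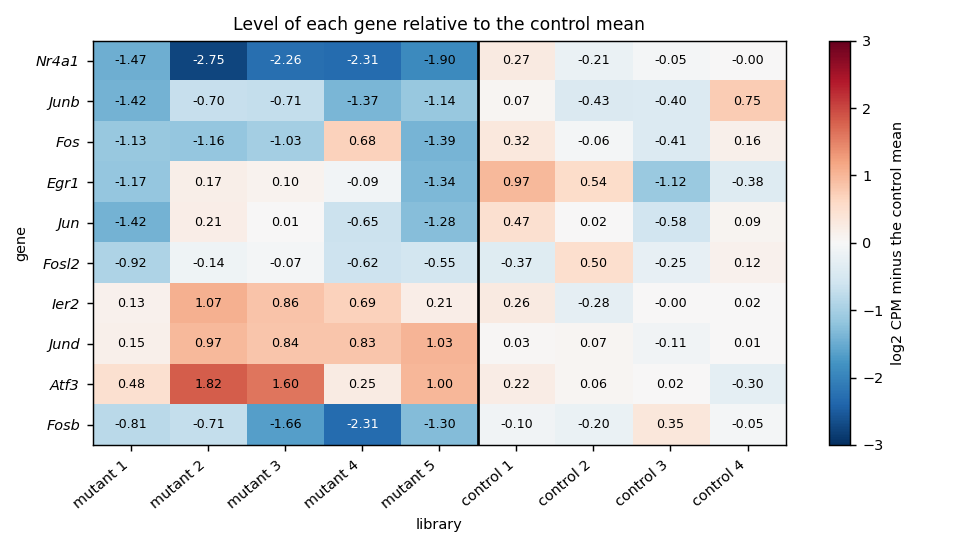
Log2 CPM of each gene in each library minus the mean of the 4 controls, with mutants left of the black line and controls right of it. Nr4a1 is blue in every mutant (-2.75 to -1.47) while Atf3 is at 1.82 and 1.60 in mutants 2 and 3, and Fos is at 0.68 in mutant 4 against -1.39 to -1.03 in the other mutants.

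Whether a member changed differently from Jund was tested within each library, on log2 ratios of counts, which do not depend on scaling. Jund itself rose (log2 fold change 0.81) on counts of 67 to 145, so a member that did not change is also lower relative to it. Jun and Fosl2 did not pass on their own (log2 fold changes -0.53 and -0.47). How many of all tested genes were lower relative to Jund was not computed, and reads of its antisense partner may add to its counts. Relative to Jund, 6 of the 9 other members were lower in mutants by an exact two-sided permutation test of the group labels (126 arrangements), adjusted over the 9. The mutant minus control difference was -2.94 for Nr4a1, -1.85 for Junb, -1.41 for Jun and -1.24 for Fosl2 (each exact p = 0.00794, the smallest that this test can give, adjusted p = 0.0179). It was -2.75 for Fosb (exact p = 0.0159, adjusted p = 0.0286), which rests on counts of 0 to 12, and -1.59 for Fos (exact p = 0.0238, adjusted p = 0.0357). Egr1 did not pass after adjustment (-1.25, adjusted exact permutation p = 0.0612). Atf3 (0.26, adjusted exact permutation p = 0.484) and Ier2 (-0.19, adjusted exact permutation p = 0.484) did not pass either. The SD between libraries was 0.59 in mutants and 0.22 in controls for Atf3, and 0.37 and 0.25 for Ier2. Without mutants 2 and 3, where the smallest possible exact p is 0.0286, 0 of the 9 passed and 5 were at that p. The count was also 0 without mutant 1, 2, 3 or 5 or without control 1, 2 or 4, 6 without mutant 4 and 7 without control 3, and with 8 libraries the smallest exact p is 0.0286 or 0.0179.

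Levels were compared between genes per kilobase of exon (GENCODE M21). In mutants the order was Ier2 (94.7 ± 26.3 CPM per kb; SD, n = 5 here and below), Jun (42.0 ± 20.6), Atf3 (37.2 ± 17.1), Junb (27.7 ± 6.70), Fos (17.5 ± 13.6), Jund (9.86 ± 2.12), Egr1 (6.49 ± 2.89), Nr4a1 (2.86 ± 0.997), Fosl2 (2.85 ± 0.698) and Fosb (0.0462 ± 0.0361). Neighbours in this order overlapped over libraries, except Fosl2 and Fosb. In controls it was Ier2 (61.4 ± 9.45 CPM per kb; SD, n = 4), Jun (60.6 ± 17.2), Junb (60.2 ± 25.0), Fos (26.4 ± 5.55), Atf3 (16.7 ± 2.46), Nr4a1 (12.4 ± 1.78), Egr1 (9.48 ± 5.54), Jund (5.61 ± 0.294), Fosl2 (3.95 ± 1.12) and Fosb (0.170 ± 0.0377). There Junb and Fos, Fos and Atf3, and Fosl2 and Fosb did not overlap, while the other neighbours did. Atf3 thus stood above Junb in mutants by mean and below Fos in controls.

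The makeup of the JUN and FOS families differed between the groups as a description of levels per kb. Jund made up 12.7%, 9.81%, 9.82%, 14.5% and 18.9% of the JUN family in mutants 1 to 5, and 3.92%, 5.46%, 5.94% and 3.44% in controls 1 to 4. Junb made up 36.1% ± 5.86 in the 5 mutants and 46.9% ± 8.91 in the 4 controls (± SD), and Jun 50.8% ± 8.67 in mutants and 48.4% ± 8.48 in controls. In the FOS family, Fosl1, which encodes FRA1, took 56.4%, 33.4%, 44.4%, 17.6% and 52.5% in mutants 1 to 5, and 7.86%, 7.84%, 24.1% and 23.1% in controls 1 to 4. Its share was lowest among mutants in mutant 4, where Fos was high. Fosl1 itself had 25.2 ± 8.25 CPM in the 5 mutants and 11.6 ± 7.22 CPM in the 4 controls (± SD), with a log2 fold change of 1.11 that did not pass (edgeR adjusted p = 0.0669). The JUN family summed to 79.5 ± 27.8 CPM per kb in the 5 mutants and 126 ± 34.9 in the 4 controls (± SD), and the FOS family to 32.8 ± 12.2 in mutants and 36.3 ± 5.82 in controls.

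**Figure D4:**
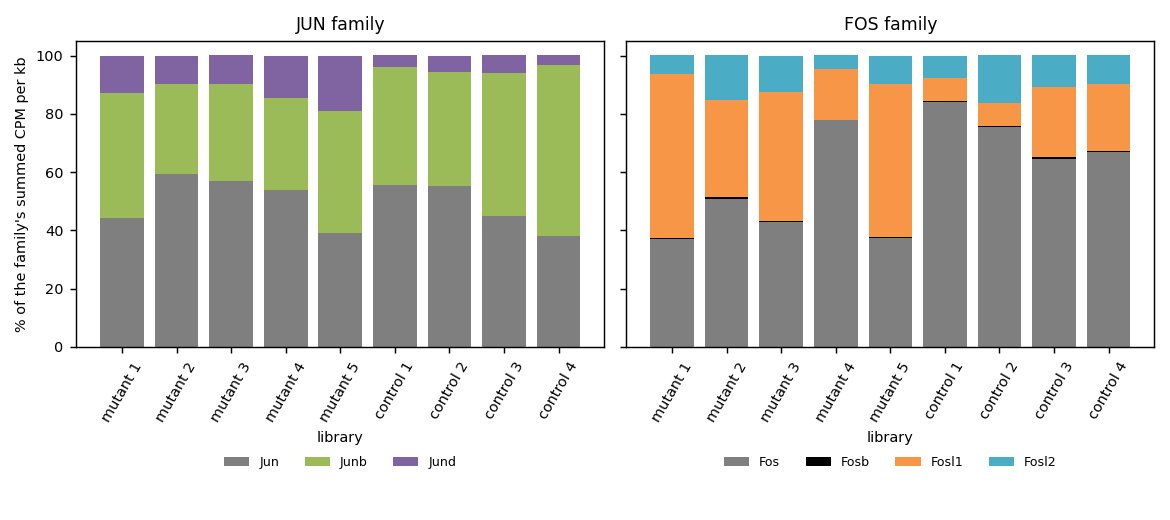
Share of each gene in the summed CPM per kb of the JUN family (left) and the FOS family (right), 1 bar per library, with mutants left of controls. Jund takes 9.81% to 18.9% of the JUN family in mutants and 3.44% to 5.94% in controls, and Fos takes 77.8% of the FOS family in mutant 4.

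Members moved partly together from library to library within a group. Over the 9 libraries, as deviations from the group mean in log2 CPM, Pearson's r was 0.87 for Jun and Ier2 and 0.86 for Jun and Egr1, and 11 of the 36 pairs were over 0.5. Nr4a1 ran against the others, with r below 0 in all 8 of its pairs, the lowest with Fosl2 (-0.74). Of the 36 pairs 6 were below -0.5, and the median was 0.37. The points share library, depth and scaling, and the same values were not computed for pairs of other genes. Joint movement is thus not shown to be particular to the members. The genes whose deviations were most like the mean of the members were Ccdc117 (r = 0.99), Cbx7 (0.959), Fance and Tox (0.956 each) and 1810043G02Rik (0.955), followed by Tbl1xr1, Zfp219, Bco2, Dbp and Klf11 (0.946 to 0.939), all over 9 libraries. These 10 were picked for the highest r among all tested genes outside the members, so high values follow from the picking and are not a test. None of these 10 was called between mutant and control, with log2 fold changes from -0.31 (Zfp219) to 0.62 (Klf11, edgeR adjusted p = 0.131).

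Other immediate early regulators held genes called in both directions. Of 20 other immediate early transcription regulators 15 were tested, of which 3 rose and 7 fell (median log2 fold change -0.41, against 0.04 over all tested genes), where 20.6% and 11.8% of all tested genes were called. Among those that fell, Crem, a cAMP-responsive factor whose short form represses CREB targets, had 47.4 ± 9.65 CPM in the 5 mutants and 158 ± 25.4 CPM in the 4 controls (± SD), with a log2 fold change of -1.73 (edgeR adjusted p = 0.00147). Bhlhe40, a repressor of the clock, fell by 1.03 on the log2 scale. Per1, a clock gene induced by CREB, fell by 1.36 at low levels of 1.17 to 2.54 CPM in mutants and 3.63 to 4.13 CPM in controls. Those that rose were Klf6, a zinc finger factor of injury responses, at 293 ± 71.0 CPM in the 5 mutants and 94.0 ± 14.7 CPM in the 4 controls (± SD, log2 fold change 1.64, edgeR adjusted p = 0.00193), the Notch target Hes1 (1.65) and the growth regulator Myc (1.70). On adjustment for the endocrine score Crem (-1.31), Bhlhe40 (-1.39) and Klf6 (1.23) passed, while Hes1, Myc and Per1 did not (edgeR adjusted p = 0.0894, 0.235 and 0.211). Egr3, Egr4 and Nr4a3, relatives of Egr1 and Nr4a1, were listed at 0 in all 9 libraries. The counts of this list without mutants 2 and 3 were 3 higher and 4 lower, where 10.8% and 9.78% of all tested genes were called.

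Of 36 other immediate early genes, mostly feedback regulators, 32 were tested, of which 5 rose and 5 fell (median log2 fold change 0.00), beside 20.6% higher and 11.8% lower over all tested genes. Plk2, a kinase, and Zfp36l1, an mRNA decay factor, rose by 1.60 and 1.57 on the log2 scale (edgeR adjusted p = 0.00459 and 0.00744). The kinase gene Sgk1 rose 3.73-fold (edgeR adjusted p = 0.0284), in a call lost without control 1, 2 or 3 or without mutant 2 or 3 (edgeR adjusted p = 0.0806, 0.0797, 0.0544, 0.0537 and 0.0724). The log2 fold changes of Sgk1 in these fits were 1.76, 1.62, 1.98, 1.43 and 1.62, against 1.9 with all libraries. Errfi1, an inhibitor of the EGF receptor, Socs3, an inhibitor of cytokine signalling, and Gem, a small GTPase that limits calcium channels, fell, at log2 fold changes of -0.91, -1.20 and -2.09 (edgeR adjusted p = 0.00849, 0.00959 and 0.0131). Gem had 4.29 ± 3.34 CPM in the 5 mutants and 18.4 ± 1.87 CPM in the 4 controls (± SD). On adjustment for the endocrine score 0 of the 32 passed, and the lowest edgeR adjusted p of the 6 named here was 0.0997 (Plk2). In that fit 7 of the 32 had an unadjusted edgeR p under 0.05, beside 2627 of all 12402 tested genes. The list's counts without mutants 2 and 3 were 2 higher and 5 lower, where 10.8% and 9.78% of all tested genes were called.

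Of 13 other AP-1 and partner bZIP genes 8 were tested, of which 1 fell and 0 rose in edgeR, with 5 at an unadjusted p under 0.05, while DESeq2 called 3 lower and 0 higher. Over all tested genes edgeR called 11.8% lower and DESeq2 20.6%, and 5761 of 12402 had an unadjusted edgeR p under 0.05. Leaving out mutants 2 and 3 gave the same edgeR counts of called genes, where 10.8% of all tested genes were called higher and 9.78% lower. The one that fell was Maff, a small MAF factor, at 9.42 ± 2.05 CPM in the 5 mutants and 22.4 ± 6.90 CPM in the 4 controls (± SD), with a log2 fold change of -1.25 (edgeR adjusted p = 0.0063). Nrl was listed at 0 in every library.

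Of the 33 upstream kinases and activators 32 were tested, of which 4 rose and 6 fell (median log2 fold change -0.42), beside 20.6% and 11.8% of all tested genes. DESeq2 called 3 of them higher and 15 lower, beside 20.3% and 20.6% of all tested genes. In the ERK cascade, the genes for the kinases BRAF (Braf, -0.96) and MEK1 (Map2k1, -0.74) fell, and that for MEK2 (Map2k2, 0.54) rose (edgeR adjusted p = 0.0126, 0.013 and 0.00857). The ribosomal S6 kinase gene Rps6ka1 rose and its relative Rps6ka2 fell, at log2 fold changes of 1.82 and -1.47. The call for Rps6ka2 was lost without control 1 or control 4 (edgeR adjusted p = 0.0638 and 0.0556), with a log2 fold change of -1.37 in both fits. On adjustment for the endocrine score 0 of the 32 passed (edgeR adjusted p = 0.0630 for Rps6ka1). There 7 of the 32 had an unadjusted edgeR p under 0.05, beside 2627 of all 12402 tested genes. Without mutants 2 and 3, 1 gene of the list was called higher and 4 lower, where 10.8% and 9.78% of all tested genes were called. Map2k1 and Map2k2 did not pass in that fit (edgeR adjusted p = 0.0543 and 0.0687).

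Heat shock and metallothionein genes, which handling stress induces beside immediate early genes, were all tested. Of the 15, 4 rose and 3 fell (median log2 fold change 0.00), beside 20.6% higher and 11.8% lower over all tested genes. The inducible genes Hspa1a and Dnajb1 fell, at log2 fold changes of -3.14 and -1.24, as did the chaperone partner Bag3, at -1.04. The small heat shock gene Hspb1 rose, at 2.21, as did the chaperonin gene Hspd1, at 0.61, and the constitutive gene Hspa8, at 0.96. Hspa1a had 12.9 ± 4.08 CPM in the 5 mutants and 113 ± 37.3 CPM in the 4 controls (± SD; edgeR adjusted p = 0.00114), but its coding sequence is nearly that of Hspa1b, so the split of reads between them is uncertain. With mutants 2 and 3 left out, 3 genes of the list were called higher and 3 lower, without Bag3 (edgeR adjusted p = 0.0551). Over all tested genes that fit called 10.8% higher and 9.78% lower. Hspb1, Hspa1a and Dnajb1 also passed on adjustment for the endocrine score.

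**Figure D5:**
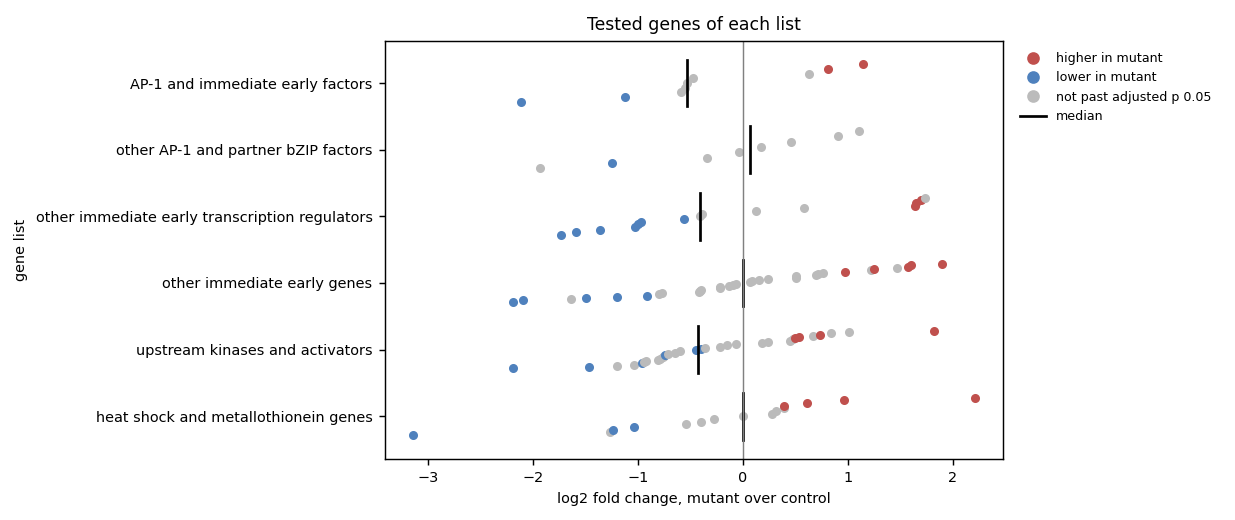
Log2 fold changes, mutant over control, of the tested genes in 6 lists, 1 point per gene, coloured by whether the gene passed an adjusted p of 0.05 (edgeR), with each list's median as a black line. In every list genes lie on both sides of 0, and the medians run from -0.53 (AP-1 and immediate early factors) to 0.07 (other AP-1 and partner bZIP factors).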

How the data were processed

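Polyadenylated RNA of islets was sequenced in 5 mutant and 4 control libraries. The authors deposited whole-number counts for each gene symbol, not normalized. Per the submitters' processing notes, the project used STAR, RSEM, DESeq2, R 4.1.0 and other tools with the build mm10, and no role is given for any of them. The aligner, counter and annotation of these counts and any use of strand are not given in the sources used here. Antisense partners and paralogs may therefore share counts. Groups and replicate numbers come from the titles. No pair of libraries within a group agreed within sampling noise, and none was a copy of another.

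Mutant was compared with control over the whole table by edgeR 4.0.16 (R 4.3.3): filterByExpr (12402 genes kept), TMM scaling, the quasi-likelihood test and Benjamini-Hochberg adjustment, two-sided, threshold 0.05. The standard error is the unshrunken log2 fold change divided by the square root of F. Log2 CPM used a prior count of 2, and ratios to Jund added 0.5 to both counts. Exon lengths and gene positions are those of GENCODE M21 (GRCm38), and promoters are from RefSeq (GRCm38.p6). Intervals and limits cover counting error only, as reads carry no molecular identifiers.

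The members, gene lists and alternatives were chosen with earlier results of these data known. Named genes were the members, up to 3 higher and 3 lower genes of lowest p per list, genes of these lists at 0, and the 10 genes of most similar deviations, with Fosl1, Prdx2 and Pdx1 named beside them. A gene that this rule names is not reported here. Alternatives were other scaling and filters, DESeq2 1.42.0, limma-voom (limma 3.58.1) with quality weights, endocrine and acinar scores as covariates, the replicate block and libraries left out. On simulated counts (12181 genes) the test recovered 18% of 100 genes changed 2-fold and 74% of 100 changed 4-fold, with 4.17% false calls.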

Additional observations from a re-analysis of the deposited data

Results flagged for a closer look

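Of 70 gene and group combinations examined (the 10 members and 25 genes named from the lists, in log2 CPM), 6 held a library that stood far from the rest of its group, and chance alone flags about 5% of groups. All 6 were mutant libraries. Fos was at 98.2 CPM in mutant 4, against 23.1 to 29.7 CPM in the other mutants. Jund was at 10.4 CPM in mutant 1, against 16.8 to 19.4 CPM in the others. Per1 was at 2.54 CPM in mutant 5, against 1.17 to 1.37 CPM in the others, and Errfi1 at 39.1 CPM in mutant 4, against 59.98 to 67.8 CPM. Socs3 was at 5.66 CPM in mutant 2, against 10.6 to 12.4 CPM in the others, and Hspa1a at 6.05 CPM in mutant 1, against 12.6 to 16.7 CPM. In mutant 4 Fos was thus high and Errfi1 low.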

How the results depend on the processing

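Each of the 9 tested members kept its direction and its side of the threshold under RLE scaling, TMM without the hormone genes, both other filters, DESeq2 and limma-voom. Over all genes edgeR called 2560 higher and 1462 lower, so that 63.6% of calls were higher. Under RLE scaling the median of all tested genes was shifted by -0.10 on the log2 scale and 51.8% of calls were higher, while DESeq2 gave 49.6% and 2555 lower genes, and limma-voom 2294 lower genes. Without mutants 2 and 3 edgeR called 1355 genes higher and 1229 lower (10.8% and 9.78% of tested genes), and 0 members higher and 4 lower. The ratio to Jund then differed for 0 members, with that of Atf3 turned to -0.10. With 35 possible splits the smallest exact permutation p was 0.0286, which 5 members reached, so this 0 cannot show that a difference was lost. The endocrine score ran from 1.55 to 5.78 in mutants and from 6.52 to 7.01 in controls, without overlap. With it as a covariate edgeR called 340 genes higher and 45 lower, and 0 and 1 members. With the acinar score it called 0 genes in either direction (349 at an unadjusted p under 0.05), and so 0 members higher and 0 lower. The acinar score is nearly the group itself, at 10.45 to 11.49 in mutants and 8.18 to 8.61 in controls. Directions turned there for Ier2 (-0.98), Maff (0.05), Klf6 (-0.12), Hes1 (-0.18), Myc (-0.07), Per1 (0.40), Sgk1 (-0.51), Errfi1 (0.34), Gem (0.37), Rps6ka1 (-0.48), Rps6ka2 (1.66) and Bag3 (0.99), and the cause was not tested. Leaving out 1 library in turn gave 1579 to 2702 genes higher and 699 to 1865 lower, 1 to 3 members higher, 2 to 3 lower, and 0 to 7 members with a different ratio to Jund. The smallest exact permutation p of those ratio tests was 0.0286 or 0.0179, so a count of 0 carries the same limit there. The lowest counts of higher and lower genes came without mutant 3 and without control 1. The replicate block called 1658 genes higher and 774 lower, 0 members higher (with Atf3 at an edgeR adjusted p of 0.0629) and 1 lower. Same-numbered libraries correlated at 0.053, -0.022, 0.181 and -0.045 in their deviations, and the main fit did not pair them. Such correlations cannot exclude a pairing, as other differences between libraries can hide it. Of the upstream kinases 4 were called higher and 6 lower, against 10 lower under RLE scaling, 15 lower by DESeq2, and 7 higher and 13 lower by limma-voom. Of the other AP-1 genes 1 was called lower, against 2 under RLE scaling and 3 each by DESeq2 and limma-voom. Fosb, with 0 to 12 counts per library, limits what can be said of its size of change.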
